A study of Arabidopsis thaliana with 18 samples.

Results

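HCT and CCR2 code for 2 enzymes on the route to lignin, and their transcripts were followed here in Arabidopsis root cultures treated with fenclorim or CMP. HCT (locus AT5G48930, probe set 248639_at) codes for hydroxycinnamoyl transferase, and CCR2 (locus AT1G80820, probe set 261899_at) codes for a cinnamoyl-CoA reductase. They were found on the array by their annotation, and they are 2 of the 13356 genes that could be named on the Affymetrix ATH1 array. Each has 1 probe set, a set of short probes that stands for the gene. The symbol CCR2 is also in use for unrelated loci, so the gene was matched by its locus.

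The study compared transcripts of wild type Col-0 root cultures after CMP, fenclorim or acetone, at 24 h and at 4 h, with 3 arrays in each of these 6 groups (18 arrays). Fenclorim is a herbicide safener, used with rice, where it raises the capacity of the plant to detoxify the herbicide. CMP is known from the labels only by this code, and the labels give no dose for either compound. All 6 groups shared ecotype, tissue and culture, which was in Gamborg's B5 medium without light at 25 °C to an age of 14 days. The labels number the arrays of a group 1 to 3 but do not say that they came from separate cultures. A p-value here is thus set against the variation among these arrays, which could be technical, and the number of arrays limits the precision.

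Lignin is a polymer of phenolic alcohols, the monolignols, that stiffens and waterproofs cell walls, in roots above all in the xylem and the Casparian strip of the endodermis. In the cell, phenylalanine is turned into coumaroyl-CoA, and HCT moves the coumaroyl group onto shikimate. That ester is the form in which the ring receives its next hydroxyl group, so HCT stands at the branch to the guaiacyl and syringyl units of lignin, and it also carries out the return transfer to CoA. Cinnamoyl-CoA reductases then reduce the CoA esters to aldehydes, the first step that is committed to monolignols. In Arabidopsis, CCR1 is the isoform tied to lignin of normal development, and CCR2 has been linked to the response to pathogens.

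The array values are MAS5 signals, an intensity in arbitrary units that had been scaled to a 2% trimmed mean of 100.01 in every array. Median signals lay between 32.1 and 35.0 in CMP arrays at 24 h, 27.1 and 31.5 in fenclorim arrays at 24 h, and 40.2 and 40.8 in acetone arrays at 24 h. At 4 h they lay between 27.8 and 33.0 with CMP, 28.0 and 30.8 with fenclorim, and 35.2 and 38.9 with acetone. Each compound is set against the same 3 acetone arrays of its time, so the comparisons share them. With either compound the log2 difference from acetone had a median below 0 over the 15278 tested probe sets, at -0.13 for CMP and -0.24 for fenclorim at 24 h, and at -0.25 for CMP and -0.23 for fenclorim at 4 h. The balance of calls against acetone went with the scaling. On the deposited scale the share of calls that were higher was 40.2% for CMP and 33.8% for fenclorim at 24 h, and 37.2% for CMP and 36.5% for fenclorim at 4 h. After centring each array on its median it was 61.4% for CMP and 74.6% for fenclorim at 24 h, and 65.1% for CMP and 66.4% for fenclorim at 4 h. For CMP against fenclorim at 24 h the share was 55.7% as deposited and 35.6% after centring. Of the root cell markers drawn up, 1 could be tested, the root hair expansin gene EXPA18. Its log2 differences from acetone were -1.73 with CMP and -2.79 with fenclorim at 24 h, and -1.74 with CMP and -1.66 with fenclorim at 4 h, and of these -2.79 passed (adjusted p = 0.0138 in limma). Without fenclorim array 2, whose signal was 0.856, it was -1.43 (adjusted p = 0.0408 in limma), and without acetone array 1 it was -2.41 and missed the threshold (adjusted p = 0.0550). With 16 added to every signal before taking log2, EXPA18 passed against acetone with either compound at both times (adjusted p from 0.00431 to 0.0242 in limma). With only the compared groups in the fit, -2.79 missed (adjusted p = 0.0813 in limma) and its other differences from acetone passed. Markers of endodermis, xylem, phloem and leaf cells were not named on the array, so the part of cell makeup in the results was not tested. In cultures of mixed cells, fewer cells of a type and less RNA per cell cannot be told apart.

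HCT was lower with CMP than with either fenclorim or acetone at both times, and all 4 of these differences kept their call under every alternative setting tried. At 24 h its signal was 242, 272 and 310.0 in the 3 CMP arrays, against 637, 713 and 626 in the acetone arrays. The brightest CMP array was below the dimmest acetone array by a wide margin. The mean was 275 ± 34.0 with CMP and 659 ± 47.1 with acetone (SD, n = 3 each), a 2.41-fold lower level as a ratio of geometric means. This is a log2 difference of -1.27 (SE 0.16, 95% interval -1.61 to -0.93), with an adjusted p of 1.07e-05 in limma after Benjamini-Hochberg adjustment over all tested probe sets. In that comparison 25.7% of the tested probe sets were called lower, 17.3% were called higher, and the arrays did not overlap for 63.9%. The fall of HCT therefore stood among many, with 11.72% of all log2 differences at or below it.

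At 4 h, HCT signals were 161, 254 and 203 in CMP arrays and 606, 707 and 665 in acetone arrays. The groups again did not overlap, and on the log2 scale the CMP arrays spread more widely (SD 0.33 with CMP and 0.11 with acetone). The difference between the 3′ and 5′ probe sets of the actin control, a sign of RNA quality, also did not overlap at 4 h, at 1.43 to 1.62 log2 units with CMP and 1.02 to 1.39 with acetone. Its part in the result was not tested. That of the GAPDH control overlapped, and at 24 h the actin difference was 1.18 to 1.28 with CMP and 1.20 to 1.40 with acetone. The means were 206 ± 46.6 with CMP and 659 ± 51.0 with acetone (SD, n = 3 each), and the log2 difference was -1.70 (SE 0.16, 95% interval -2.04 to -1.36, adjusted p = 4.74e-07 in limma), a 3.25-fold lower level. Here 23.3% of the tested probe sets were called lower with CMP, 13.8% were called higher and 48.2% had arrays that did not overlap. The difference of HCT was lower than most, with 3.692% at or below it. Relative to the median of all probe sets, the differences of HCT were -1.13 at 24 h and -1.45 at 4 h.

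With fenclorim, no difference of HCT from acetone passed the test. The fenclorim arrays read 869, 696 and 904 at 24 h, against the acetone values of 637, 713 and 626 already given. The second fenclorim array lay inside the acetone range and the other two above it. HCT thus differed by 0.31 on the log2 scale (SE 0.16, 95% interval -0.03 to 0.66, adjusted p = 0.126 in limma). Of all tested probe sets, 14.1% were called higher and 27.7% lower in this comparison. At 4 h the fenclorim arrays read 638, 669.7 and 719, which overlapped the acetone range of 606 to 707. That is a log2 difference of 0.04 (95% interval -0.30 to 0.38, adjusted p = 0.876 in limma), where 14.4% of probe sets were called higher and 25.0% lower. Centring each array on its own median gave 0.81 at 24 h, past the threshold (adjusted p = 0.00499 in limma), where the median of all probe sets was 0.25. Quantile normalization gave 0.096 (adjusted p = 0.638 in limma), and leaving out fenclorim array 2 gave 0.43 (adjusted p = 0.0495).

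Between the compounds, HCT was lower with CMP at both times, the 2 comparisons that match the compounds by time. At 24 h the CMP signals of 242 to 310.0 stood against 696 to 904 with fenclorim, and at 4 h those of 161 to 254 stood against 638 to 719. No CMP array reached a fenclorim array at either time. On the log2 scale HCT differed by -1.58 at 24 h (SE 0.16, 95% interval -1.92 to -1.24, adjusted p = 1.32e-05 in limma), a 2.99-fold lower level. It was -1.74 at 4 h (SE 0.16, 95% interval -2.08 to -1.40, adjusted p = 1.08e-05 in limma), a 3.34-fold lower level. Calls between the compounds were fewer than against acetone. At 24 h 13.7% of tested probe sets were lower and 17.2% higher with CMP, with arrays that did not overlap for 41.5%. At 4 h 3.77% were lower, 3.55% were higher and 24.4% had arrays that did not overlap. Of these differences, 1.689% at 24 h and 1.335% at 4 h were at or below that of HCT. The doses are not given, so the comparison is between the cultures as treated.

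**Figure D1:**
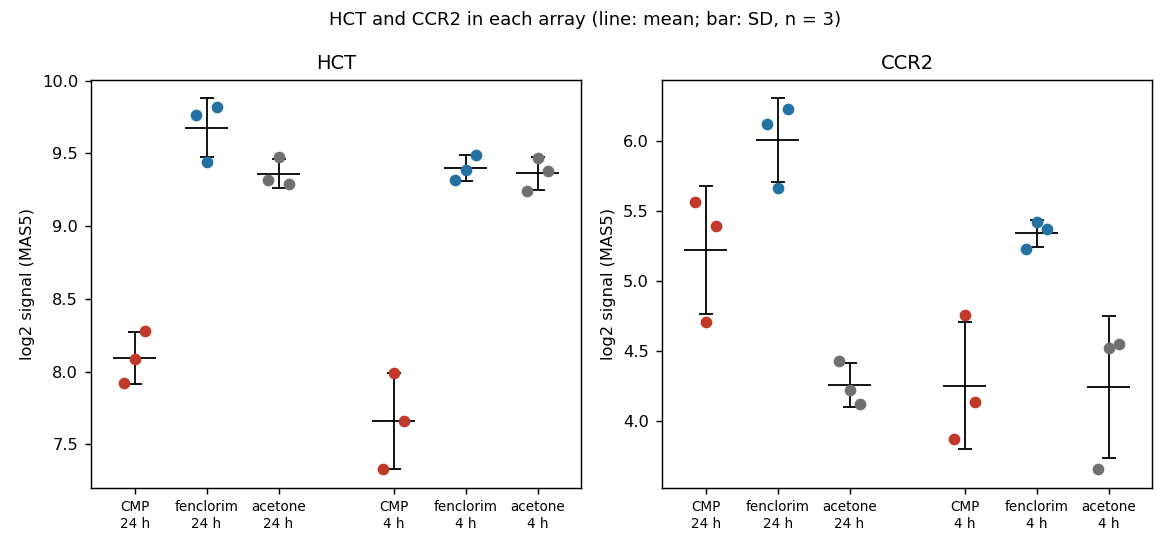
Log2 signal of HCT (left panel) and CCR2 (right panel) in each of the 18 arrays, by compound at 24 h and then at 4 h; points are arrays, the line is the group mean and the bar its SD (n = 3). HCT lies between 7.33 and 8.28 in the 6 CMP arrays and between 9.24 and 9.82 in the other 12, and CCR2 is highest in the fenclorim arrays at both times.

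Ordered by mean log2 signal, HCT ran through fenclorim at 24 h (9.68 ± 0.20), fenclorim at 4 h (9.40 ± 0.09), acetone at 4 h (9.36 ± 0.11), acetone at 24 h (9.36 ± 0.10), CMP at 24 h (8.09 ± 0.18) and CMP at 4 h (7.66 ± 0.33, SD, n = 3 each). Among neighbours in this order, acetone at 24 h and CMP at 24 h were the one pair whose arrays did not overlap, with a gap of 1.27 between means. Over all tested probe sets this pair of groups did not overlap for 63.9%. The HCT signal was well inside the measured range throughout. It stood between the percentiles 95.3 and 96.8 of its array with fenclorim or acetone, between 87.1 and 89.7 with CMP at 24 h, and between 81.3 and 87.6 with CMP at 4 h.

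CCR2 rose with fenclorim at both times. At 24 h its signal was 69.8, 50.9 and 75.2 in fenclorim arrays, against 21.6, 18.7 and 17.4 in acetone arrays. Every fenclorim array was above every acetone array, as held for 47.1% of all tested probe sets in one direction or the other. The means were 65.3 ± 12.8 with fenclorim and 19.2 ± 2.14 with acetone (SD, n = 3 each). The log2 difference was 1.75 (SE 0.30, 95% interval 1.12 to 2.38, adjusted p = 0.000291 in limma), a 3.36-fold higher level, and 96.9% of tested probe sets had a smaller or equal difference. In that comparison 14.1% of tested probe sets were called higher and 27.7% lower.

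At 4 h, CCR2 read 37.6, 42.9 and 41.4 in fenclorim arrays and 12.6, 22.9 and 23.4 in acetone arrays. The groups did not overlap, as for 50.0% of tested probe sets, and 1 acetone array lay well under the other two. The means were 40.6 ± 2.73 with fenclorim and 19.7 ± 6.12 with acetone (SD, n = 3 each), with a log2 difference of 1.101 (SE 0.30, 95% interval 0.47 to 1.73, adjusted p = 0.00765 in limma), a 2.14-fold higher level. Here 14.4% of tested probe sets were called higher and 25.0% lower, and 90.99% had a smaller or equal difference. Relative to the median of all probe sets, the differences of CCR2 were 1.99 at 24 h and 1.33 at 4 h.

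CCR2 was also higher with CMP than with acetone at 24 h, a smaller difference and a less steady call. The CMP arrays read 47.4, 26.1 and 42.1, and all 3 were above the highest acetone array at 21.6. Arrays of these groups did not overlap for 63.9% of all tested probe sets, and 17.3% were called higher. For 88.55% the log2 difference was smaller than or equal to that of CCR2. The mean was 38.5 ± 11.1 with CMP and 19.2 ± 2.14 with acetone (SD, n = 3 each). CCR2 differed by 0.96 on the log2 scale (SE 0.30, 95% interval 0.34 to 1.59, adjusted p = 0.0146 in limma), a 1.95-fold higher level. The call was lost when acetone array 3 was left out (0.90, adjusted p = 0.0513 in limma), CMP array 1 (0.79, adjusted p = 0.0730) or CMP array 3 (0.88, adjusted p = 0.0555).

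With CMP at 4 h, CCR2 read 14.6, 27.0 and 17.5, against the acetone values of 12.6, 22.9 and 23.4. The ranges overlapped almost wholly. Their log2 difference was 0.01 (SE 0.30, 95% interval -0.62 to 0.64, adjusted p = 0.979 in limma), and its sign changed with the arrays used. The interval is wide, and a p that misses the threshold does not show equal levels.

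Set against fenclorim, CCR2 with CMP was lower at 4 h (14.6, 27.0 and 17.5, against 37.6, 42.9 and 41.4 with fenclorim). No CMP array reached a fenclorim array, and such a lack of overlap, in one direction or the other, held for 24.4% of all tested probe sets. In that comparison 3.77% were called lower and 3.55% higher. The log2 difference was -1.09 (SE 0.30, 95% interval -1.72 to -0.46, adjusted p = 0.0331 in limma), a 2.13-fold lower level with 3.639% of all differences at or below it. This call was lost under 8 of 14 other settings, among them leaving out any of the fenclorim arrays or CMP array 1 or 3, with values between -1.34 and -0.90 over single arrays left out. At 24 h the CMP values of 47.4, 26.1 and 42.1 lay below the fenclorim values of 69.8, 50.9 and 75.2 in every array. Arrays of these groups did not overlap for 41.5% of all tested probe sets. The difference of -0.79 (SE 0.30, 95% interval -1.41 to -0.16) did not pass (adjusted p = 0.0542 in limma). It passed under 5 of 14 settings, such as without fenclorim array 2 (-0.96, adjusted p = 0.0257 in limma).

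By mean log2 signal CCR2 ran through fenclorim at 24 h (6.01 ± 0.30), fenclorim at 4 h (5.34 ± 0.10), CMP at 24 h (5.22 ± 0.46), acetone at 24 h (4.26 ± 0.16), CMP at 4 h (4.25 ± 0.45) and acetone at 4 h (4.24 ± 0.51, SD, n = 3 each). Neighbours did not overlap between fenclorim at 24 h and fenclorim at 4 h (a gap of 0.67) and between CMP at 24 h and acetone at 24 h (a gap of 0.96). Over all tested probe sets these pairs of groups did not overlap for 22.0% and 63.9%. The CCR2 signal was low in the acetone arrays, the base of its fold changes. It stood between the percentiles 33.1 and 42.6 of its array in acetone arrays at 4 h and between 36.5 and 39.2 at 24 h. All acetone arrays at 24 h were thus below the 40th percentile that the filter used. In fenclorim arrays at 24 h it stood between 58.8 and 68.6. Adding 16 to every signal before taking log2, which damps differences at low signal, lowered the fenclorim difference to 1.20 at 24 h and 0.68 at 4 h and kept both calls.

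A spiked control moved partly with CCR2. The 12 probe sets of poly-A control RNAs, which are added to the sample before labelling, had a mean log2 signal between 6.93 and 7.01 in CMP arrays, 7.21 and 8.04 in fenclorim arrays and 6.05 and 7.11 in acetone arrays at 24 h. At 4 h the ranges were 6.30 to 7.67 with CMP, 6.85 to 7.43 with fenclorim and 6.20 to 6.69 with acetone. The fenclorim range lay above the acetone range at both times without overlap, as it did for CCR2. As a description, Pearson's r with these control values over the 18 arrays was 0.79 for CCR2 and 0.29 for HCT. Within groups it was 0.56 for CCR2 and 0.67 for HCT. CMP array 2 at 4 h, highest in its group at 7.67, had the highest HCT and CCR2 of that group, and fenclorim array 2 at 24 h, lowest at 7.21, had the lowest of both. Fenclorim array 3 at 4 h, highest in its group at 7.43, had the highest HCT but not the highest CCR2. The part of the control in the results was not tested. With those 2 arrays and fenclorim array 3 at 4 h left out together, CCR2 still passed for fenclorim against acetone. The 4 differences of HCT for CMP against acetone or fenclorim also passed. That setting was chosen after seeing the data. It left out the lowest CCR2 array of fenclorim at 24 h and the highest HCT array of CMP at 4 h, which widens those differences. Fenclorim arrays 1 and 3 at 24 h stayed in, with control values of 7.83 and 8.04. The result is thus no test of the part of the control.

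**Figure D2:**
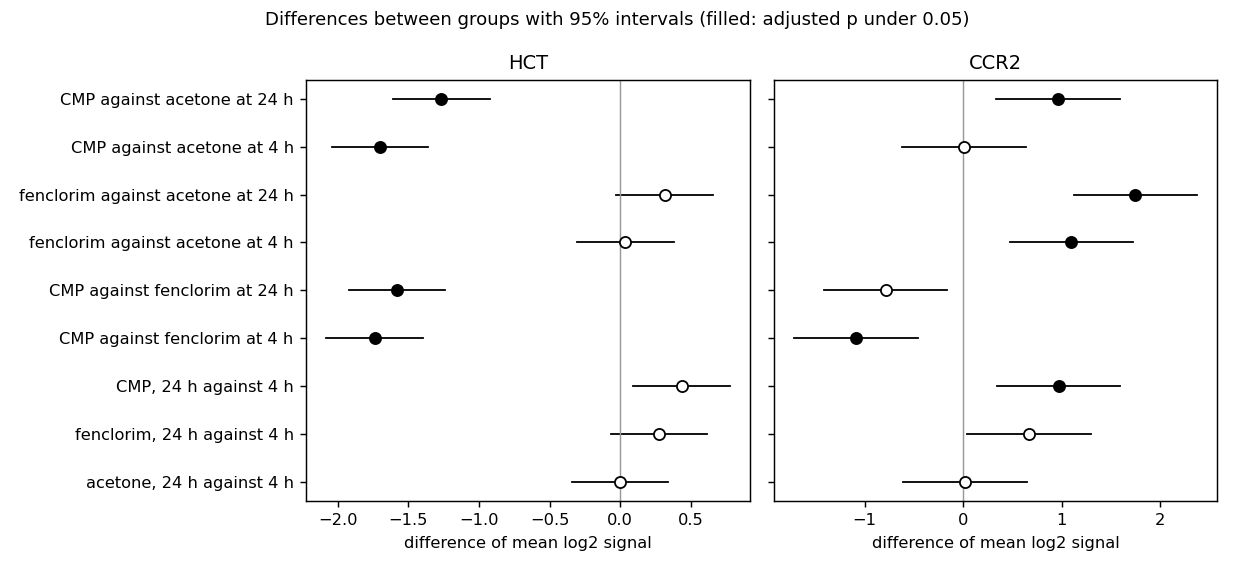
Differences of mean log2 signal between groups for HCT (left) and CCR2 (right), with 95% intervals from limma; filled points passed an adjusted p of 0.05. The 4 intervals of HCT for CMP against acetone or fenclorim lie wholly below 0, the nearest bound at -0.93. Those of CCR2 with fenclorim against acetone lie wholly above 0, the nearest bound at 0.47. The intervals are not adjusted for the number of tests, so some exclude 0 without a call, such as HCT for CMP at 24 h against 4 h (0.09 to 0.78).

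Neither gene differed between times in the acetone cultures by the test. HCT had a log2 difference of -0.00056 between 24 h and 4 h (adjusted p = 0.999 in limma) and CCR2 one of 0.02 (adjusted p = 0.996), and 0.00% of the tested probe sets were called, though 769 had an unadjusted p under 0.05. With fenclorim, 24 h against 4 h, the differences were 0.28 for HCT (adjusted p = 0.299 in limma) and 0.67 for CCR2 (adjusted p = 0.168), where 9.47% of probe sets were called. The CCR2 arrays of 50.9 to 75.2 at 24 h did not overlap those of 37.6 to 42.9 at 4 h, as for 22.0% of probe sets. With CMP, HCT was 0.43 higher at 24 h (SE 0.16), which did not pass (adjusted p = 0.0902 in limma), and its arrays of 242 to 310.0 overlapped those of 161 to 254. CCR2 with CMP was 0.97 higher at 24 h (SE 0.30, adjusted p = 0.0428 in limma), with arrays of 26.1 to 47.4 at 24 h and 14.6 to 27.0 at 4 h that overlapped, and 5.33% of probe sets were called higher. That call was lost under 9 of 14 settings.

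No effect of a compound on HCT or CCR2 was shown to differ between the times. The CMP effect against acetone was 0.44 higher at 24 h than at 4 h for HCT (SE 0.23, adjusted p = 0.373 in limma) and 0.95 higher for CCR2 (SE 0.42, adjusted p = 0.267), where 3.04% of probe sets were called. For the fenclorim effect the values were 0.28 for HCT (adjusted p = 0.528 in limma) and 0.65 for CCR2 (adjusted p = 0.415), with 2.74% called. For CMP against fenclorim they were 0.16 for HCT (adjusted p = 0.700 in limma) and 0.30 for CCR2 (adjusted p = 0.686), with 4.91% called. CCR2 passing against acetone with CMP at 24 h but not at 4 h is therefore not a tested difference between times.

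Array by array, neither gene alone separated all 3 treatments. The 6 CMP arrays had HCT between 7.33 and 8.28 on the log2 scale with CCR2 between 3.87 and 5.57. The 6 fenclorim arrays had HCT between 9.32 and 9.82 with CCR2 between 5.23 and 6.23. The 6 acetone arrays had HCT between 9.24 and 9.48 with CCR2 between 3.65 and 4.55. On HCT the CMP arrays did not overlap the other arrays, while fenclorim and acetone arrays overlapped. On CCR2 the fenclorim arrays did not overlap the acetone arrays, while the CMP arrays overlapped both. The share of all probe sets with such splits over both times together was not computed.

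**Figure D3:**
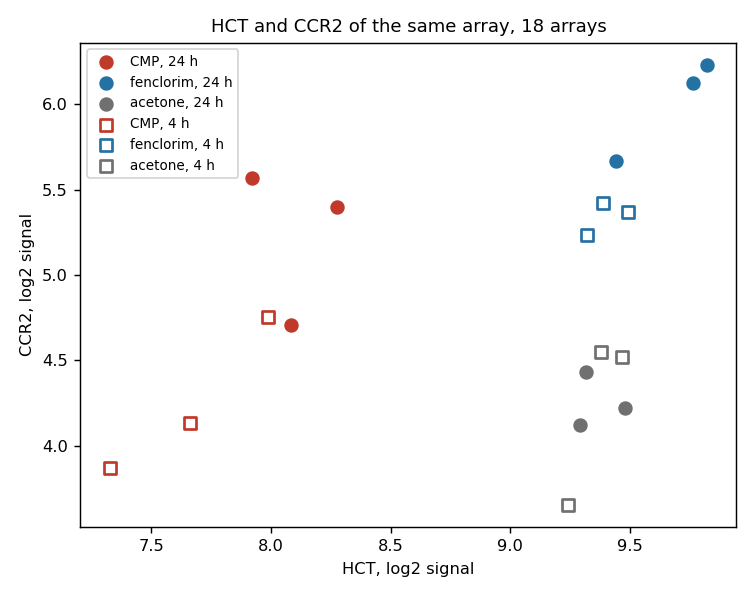
Log2 signal of HCT (x axis) against CCR2 (y axis) in the same array, 18 arrays, coloured by compound with filled circles at 24 h and open squares at 4 h. CMP arrays lie at the left, at most 8.28 for HCT, and the fenclorim arrays lie at the upper right, at 5.23 or more for CCR2.

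The other named genes of the pathway came from 7 lists of 104 loci (with HCT and CCR2), and the array annotation named 19 of them, of which 16 were tested. None of the listed genes of phenylalanine supply, of the regulators or of secondary wall cellulose was among them, and of the flavonoid branch DFR was named but too dim to test. Many well known lignin genes were unnamed here, including those for phenylalanine ammonia-lyase and CCR1, so these counts describe a small share of the pathway. In monolignol synthesis 3 of 27 listed genes were tested. With HCT and CCR2 among them, 2 were called higher and 1 lower with CMP against acetone at 24 h, and 1 and 1 at 4 h. Over all tested probe sets 17.3% were called higher and 25.7% lower at 24 h, and 13.8% and 23.3% at 4 h. With fenclorim against acetone 1 was called higher at 24 h (14.1% of all) and 2 at 4 h (14.4%), with none lower (27.7% and 25.0% of all). Between CMP and fenclorim 1 was higher and 1 lower with CMP at 24 h (17.2% and 13.7% of all), and 0 and 2 at 4 h (3.55% and 3.77%).

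The third of these genes is ALDH2C4, which codes for an aldehyde dehydrogenase that oxidises coniferaldehyde and sinapaldehyde to ferulic and sinapic acid. It rose with CMP at 24 h, with signals of 2043, 1932 and 2196 in CMP arrays, 668, 1108 and 598 in fenclorim arrays and 1080.1, 1101 and 1035 in acetone arrays. All CMP arrays lay above all others at that time. For the pair of groups CMP and acetone, 63.9% of all probe sets had arrays that did not overlap, and for CMP and fenclorim 41.5%. The log2 difference was 0.94 against acetone (adjusted p = 0.00526 in limma) and 1.43 against fenclorim (adjusted p = 0.000599). At 4 h it was 0.74 with CMP and 0.70 with fenclorim against acetone, calls that were lost under 5 and 6 of 15 settings.

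Of the enzymes that glucosylate or polymerise monolignols, 10 of 23 listed were tested. With CMP against acetone 5 were called higher and 3 lower at 24 h (17.3% and 25.7% of all probe sets), and 4 higher and 3 lower at 4 h (13.8% and 23.3% of all), with medians of 1.17 and 0.41 beside -0.13 and -0.25 over all probe sets. With fenclorim 4 were called higher and 0 lower at 24 h (14.1% and 27.7% of all), and 4 higher and 1 lower at 4 h (14.4% and 25.0% of all), with medians of 0.69 and 0.73 beside -0.24 and -0.23. Centring arrays on their medians turned the fenclorim count at 24 h to 7 higher and 0 lower. Between CMP and fenclorim 3 were higher and 2 lower with CMP at 24 h (17.2% and 13.7% of all), and 1 higher and 2 lower at 4 h (3.55% and 3.77% of all). The 24 h count was 1 higher and 2 lower after median centring.

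UGT72E2, whose enzyme adds glucose to monolignols and is known for coniferyl and sinapyl alcohol glucosides in Arabidopsis, rose with both compounds at 24 h. Its signals were 825, 588 and 698 with CMP, 461, 218 and 809 with fenclorim and 209.6, 139.7 and 70.1 with acetone. Every treated array lay above the acetone arrays, in comparisons where 63.9% (CMP) and 47.1% (fenclorim) of all probe sets did not overlap, and the fenclorim arrays spread widely. The log2 differences from acetone were 2.46 with CMP (adjusted p = 0.000377 in limma) and 1.77 with fenclorim (adjusted p = 0.00635). At 4 h they were 1.33 with CMP and 1.32 with fenclorim, each call lost under 4 of 15 settings. Its relative UGT72E1, which glucosylates coniferyl and sinapyl aldehydes, fell with CMP at 24 h by 0.95 against acetone (adjusted p = 0.00293 in limma) and by 1.20 against fenclorim (adjusted p = 0.00124). At 4 h its difference with CMP from acetone was -0.70, a call lost under 4 of 15 settings. UGT72E3, the remaining glucosyltransferase, was not called in any of the 6 comparisons.

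The largest difference of any tested pathway gene in the 6 comparisons at a time was that of PRX52, a class III peroxidase linked in Arabidopsis to the lignin of interfascicular fibres. At 24 h it read 345, 422 and 422 with CMP, 142, 33.0 and 67.3 with fenclorim and 35.0, 23.1 and 27.3 with acetone. CMP arrays lay far above both other groups, and 1 fenclorim array lay inside the acetone range. The acetone signals, the base of its fold changes, were low, and at 4 h they read 19.7, 13.7 and 14.0. Over all probe sets, arrays did not overlap for 63.9% between CMP and acetone and for 41.5% between CMP and fenclorim. The log2 difference with CMP was 3.81 against acetone (adjusted p = 7.23e-07 in limma) and 2.53 against fenclorim (adjusted p = 0.000198). Its differences from acetone of 1.28 with fenclorim at 24 h and 1.18 with CMP at 4 h were called but lost under 3 and 5 of 15 settings. The CMP effect on PRX52 was 2.63 larger at 24 h than at 4 h (SE 0.53, adjusted p = 0.0141 in limma).

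PRX25, another class III peroxidase, fell with CMP at 24 h, as did HCT. Its signals were 20.9, 17.7 and 19.4 with CMP, 45.1, 38.2 and 59.3 with fenclorim and 81.7, 73.4 and 38.4 with acetone. Its signal fell by 1.67 log2 units against acetone (adjusted p = 0.000115 in limma) and by 1.28 against fenclorim (adjusted p = 0.00274). At 4 h its differences with CMP were -0.99 from acetone and -1.18 from fenclorim, each call lost under 2 of 15 settings. PRX71 rose with CMP against acetone by 1.07 at 24 h and 0.79 at 4 h, and its differences from fenclorim, 0.63 and 0.86, were lost under 7 and 2 of 15 settings. PRX72, which is required for normal lignin in Arabidopsis stems, rose with fenclorim by 1.17 at 4 h (adjusted p = 0.00617 in limma), and its 24 h difference was not called. Its difference of -1.27 for CMP against fenclorim at 4 h was lost under 3 of 15 settings.

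Of the loci on this list to which RefSeq gives no gene name, AT4G33420 rose in all 4 comparisons with acetone, by 1.31 with CMP and 0.82 with fenclorim at 24 h, and by 1.11 with CMP and 1.098 with fenclorim at 4 h. For CMP against fenclorim at 24 h its difference was 0.49, lost under 8 of 15 settings. AT5G51890 rose at 24 h by 1.48 with CMP and 1.80 with fenclorim, and at 4 h its difference with fenclorim was 0.91, lost under 2 of 15 settings. AT2G22420 fell by 1.24 with CMP at 4 h. It was also called lower against acetone with fenclorim at 4 h (-1.05) and with CMP at 24 h (-0.92), calls that were lost under 5 and 8 of 15 settings.

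In the branch that leads from the same CoA esters to coumarins and other conjugates, 3 of 7 listed genes were tested. With CMP against acetone 1 was called higher and 0 lower at 24 h, and 1 and 1 at 4 h, with medians of 0.85 and 0.46, where 17.3% and 25.7% of all probe sets were called at 24 h and 13.8% and 23.3% at 4 h. With fenclorim 2 were higher and 0 lower at either time, with medians of 1.57 and 2.06, where 14.1% and 27.7% of all were called at 24 h and 14.4% and 25.0% at 4 h. The CMP count at 24 h was 2 higher under median centring or quantile normalization, and the fenclorim count was 3 higher at either time under median centring. F6'H1 (AT3G13610), which codes for the enzyme that hydroxylates feruloyl-CoA on the way to the coumarin scopoletin, rose with both compounds at both times. Its signals at 24 h were 742, 758 and 836 with CMP, 394, 352 and 331 with fenclorim and 214, 111 and 73.5 with acetone. At 4 h they were 312, 495 and 458 with CMP, 956, 984 and 462 with fenclorim and 51.1, 107 and 139.6 with acetone. Treated and acetone arrays did not overlap at either time, in comparisons where 47.1% to 63.9% of all probe sets did not. The log2 differences from acetone were 2.69 with CMP and 1.57 with fenclorim at 24 h, and 2.18 with CMP and 3.05 with fenclorim at 4 h, with the highest adjusted p at 0.00434 in limma. Against fenclorim at 24 h its difference with CMP was 1.12, lost under 7 of 15 settings.

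FACT, a transferase that joins caffeic acid to fatty alcohols of waxes, rose with fenclorim against acetone by 1.97 at 24 h (adjusted p = 0.00109 in limma) and by 2.06 at 4 h (adjusted p = 0.000631). With CMP its differences from acetone were not called, and those from fenclorim, -1.12 at 24 h and -1.60 at 4 h, were lost under 9 and 4 of 15 settings. AT1G28680, to which RefSeq gives no gene name, fell with CMP against acetone by 1.16 at 4 h (adjusted p = 0.000212 in limma), and against fenclorim by 0.74 at 24 h and 1.47 at 4 h. Over the 6 comparisons, the pathway genes other than HCT and CCR2 had 48 calls, of which 29 held under every setting tried and 19 were lost under at least 1. Of all tested probe sets, 13.8% to 17.3% were called higher and 23.3% to 27.7% lower in a comparison with acetone. Between the compounds 3.55% to 17.2% were called higher and 3.77% to 13.7% lower.

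**Figure D4:**
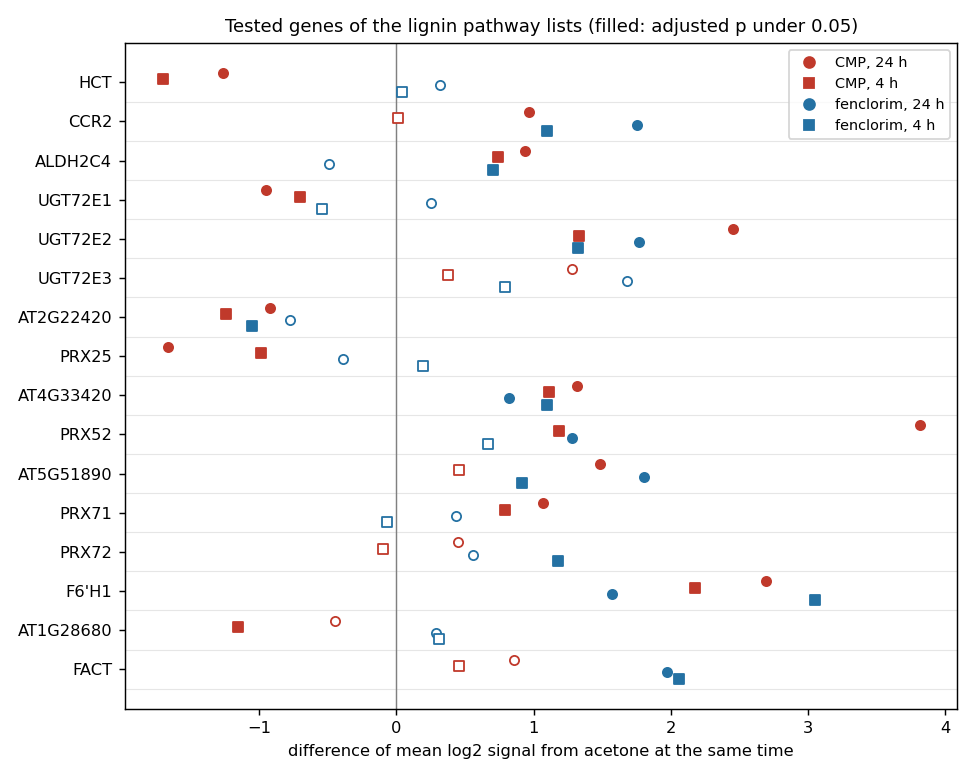
Difference of mean log2 signal from acetone at the same time for the 16 tested pathway genes (rows), with CMP in red and fenclorim in blue, circles at 24 h and squares at 4 h; filled symbols passed an adjusted p of 0.05 in limma. HCT has filled symbols for CMP alone, at -1.27 and -1.70, and the farthest symbol to the right is PRX52 with CMP at 24 h (3.81).

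The genes whose log2 signal followed HCT most closely over the 18 arrays, among 8247 others with a name, were AT3G06410 (Pearson's r = 0.94), AT4G33960 (0.92), AT5G41670 (0.92), AT4G16563 (0.89) and MSRB5 (0.89), which codes for a methionine sulfoxide reductase. Arrays of a group share their treatment, so these values mostly follow the group means, and within groups r was between 0.17 and 0.55. AT4G16563, at 0.17 within groups, ran from 0.10 to 6.12 on the log2 scale, so its r includes very low signals. The lowest values of r with HCT belonged to AT5G19070 (-0.95), AT5G18130 (-0.93) and AT1G26130 (-0.93). For CCR2 the closest were AT4G38080 (0.95), AT1G56320 (0.95), AT2G22510 (0.95), JAL33 (0.94), which codes for a jacalin-related lectin, and AT2G03200 (0.93). Within groups their r with CCR2 was between 0.72 and 0.92. Also within groups, CCR2 had an r of 0.61 with HCT and -0.43 with the array median, and HCT one of -0.71 with the array median. The part of variation shared by a whole array in these values of r was not tested. The lowest for CCR2 were AT4G19530 (-0.93), AT2G19880 (-0.91) and AT1G73020 (-0.90). None of the other tested pathway genes was among the genes listed for HCT or for CCR2.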

How the data were processed

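Total RNA was labelled by 3′ in vitro transcription and hybridised to 1 ATH1 array per sample, per the labels' protocols. The authors deposited linear intensity signals made with MAS5 in GCOS, per the submitters' processing notes, with no version or build given in the sources used. MAS5 subtracts background within an array, so low signals carry large relative errors. Examples are those of CCR2, of PRX52 in acetone arrays and of PRX25 in CMP arrays. The signals were taken to log2 without rescaling. Genes were named from the platform annotation, updated by locus through RefSeq (TAIR10.1, names only), and 13436 of 13513 probe sets listed with 1 gene matched. Tests covered the 15278 of 22746 probe sets that lay above the 40th percentile of their array in at least 3 arrays, with Affymetrix controls left out.

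All 18 arrays were fitted with limma 3.58.1 (R 4.3.3), with 1 mean per group and an intensity trend, and the Benjamini-Hochberg adjustment ran over all tested probe sets. A call means an adjusted p under 0.05. Every listed gene called in at least 1 of the 6 comparisons of groups at a time is named, as are the 5 highest and 3 lowest values of r. HCT, CCR2 and the gene lists were chosen with earlier results of these data known. Alternatives changed the filter, the scaling, an offset, the trend, a replicate block and the arrays in the fit. No arrays held identical values.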

Additional observations from a re-analysis of the deposited data

Results flagged for a closer look

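The differences below are those of named pathway genes whose response to a compound differed between 24 h and 4 h by the test of that difference in limma, with Benjamini-Hochberg adjustment over all tested probe sets. HCT and CCR2 had none. The CMP effect on PRX52 against acetone was 2.63 log2 units larger at 24 h than at 4 h (SE 0.53, adjusted p = 0.0141), and this call held under every setting tried. The difference between CMP and fenclorim was 2.02 larger at 24 h for PRX52 (SE 0.53, adjusted p = 0.0378), 1.39 larger for ALDH2C4 (SE 0.35, adjusted p = 0.0321) and 1.99 larger for F6'H1 (AT3G13610, SE 0.54, adjusted p = 0.0443). Signals of F6'H1 were 742, 758 and 836 with CMP and 394, 352 and 331 with fenclorim at 24 h, and 312, 495 and 458 with CMP and 956, 984 and 462 with fenclorim at 4 h. The last 3 calls were each lost under more than 10 other settings.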

How the results depend on the processing

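The 4 differences of HCT with CMP kept direction and call under every setting, with log2 values between -1.41 and -0.997 (24 h) and -1.87 and -1.41 (4 h) against acetone, and between -1.81 and -1.49 (24 h) and -1.90 and -1.57 (4 h) against fenclorim. So did CCR2 with fenclorim against acetone, at 1.20 to 2.25 (24 h) and 0.68 to 1.44 (4 h). In all, 12 of 24 results held under every setting, and those besides the calls just given were results that stayed uncalled. CCR2 lies below the stricter filter and has no value there. CCR2 lay as low as the percentile 33.1 of an array. The cause of the changes was not tested.

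The calls of CCR2 for CMP against fenclorim at 4 h (-1.09) and for CMP at 24 h against 4 h (0.97) were lost with no filter (adjusted p = 0.0528 and 0.0689 in limma) and with only the compared groups (0.0626 and 0.0601). The replicate numbers showed no steady pairing in the deviations of arrays from their group means. In 0 of 6 comparisons did every same-numbered pair correlate over 0.1, and 4 of 18 arrays correlated best with their own number. Such correlations cannot show whether same-numbered arrays shared a culture or a run. With the replicate number as a block the values of CCR2 stayed at -1.09 and 0.97 and missed the threshold (0.0530 and 0.0643), and no other call of HCT or CCR2 changed. With median centring, HCT passed for fenclorim against acetone at 24 h (0.81) and CCR2 for CMP against fenclorim at 24 h (-1.01), while CCR2 with CMP at 24 h against 4 h missed (0.83). Signs turned for CCR2 in acetone, 24 h against 4 h (-0.10), and for the change over time of CMP against fenclorim in HCT (-0.017). With quantile normalization CCR2 passed for CMP against fenclorim at 24 h (-0.92) and missed for CMP at 24 h against 4 h (0.85), and signs turned for HCT with fenclorim against acetone at 4 h (-0.090) and in acetone over time for HCT (0.064) and CCR2 (-0.12). With the offset CCR2 passed for CMP against fenclorim at 24 h (-0.58), and its acetone difference over time was -0.0042.

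With CMP array 2 and fenclorim array 3 at 4 h and fenclorim array 2 at 24 h left out together, a setting chosen after seeing the data, HCT passed for fenclorim against acetone at 24 h (0.43), for fenclorim at 24 h against 4 h (0.44) and for CMP at 24 h against 4 h (0.60). CCR2 passed for CMP against fenclorim at 24 h (-0.96). Signs turned for HCT with fenclorim against acetone at 4 h (-0.0088) and for CCR2 with CMP against acetone at 4 h (-0.24).

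Single arrays left out gave CCR2 ranges of 0.79 to 1.22 for CMP against acetone at 24 h, -0.28 to 0.20 at 4 h, -0.96 to -0.53 for CMP against fenclorim at 24 h, -1.34 to -0.90 at 4 h, 0.78 to 1.23 for CMP over time and -0.28 to 0.17 for acetone over time. The call over time with CMP was lost without CMP array 1 or 3 of either time. For HCT the ranges were 0.24 to 0.43 for fenclorim against acetone at 24 h, -0.023 to 0.089 at 4 h, 0.27 to 0.60 for CMP over time (past the threshold without CMP array 2 at 4 h, adjusted p = 0.0309 in limma), -0.060 to 0.051 for acetone over time and -0.0069 to 0.32 for the change over time of CMP against fenclorim.

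Median centring gave 4785 higher and 1627 lower for fenclorim against acetone at 24 h (2161 and 4234 as deposited), and 3477 and 1756 at 4 h (2199 and 3822). It gave 2476 lower for CMP against acetone at 24 h (3931), 1611 lower at 4 h (3560), and 3205 lower for CMP against fenclorim at 24 h (2088). Quantile normalization gave 2742 lower for fenclorim against acetone at 24 h, and only the compared groups 2577. For CMP against fenclorim at 24 h, only the compared groups gave 1571 higher and 1228 lower, and single arrays left out gave as few as 1542 higher (2628) and 1340 lower. At 4 h they gave as few as 254 higher (543) and 315 lower (576). Without the 3 arrays, CMP against fenclorim had 4320 higher at 24 h and 1011 at 4 h.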
